A study of Mus musculus with 3 samples.

Results

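The genes described here were *Tet1*, *Tet2*, *Tet3*, *Tdg*, *Mbd1*, *Mbd2*, *Mbd3*, *Mbd4*, and *Gadd45a*, which encode the TET dioxygenases, DNA glycosylases, readers of methylated CpG sites, and a GADD45 adaptor. They were chosen by gene name, and all 9 had a row among the 55421 named genes of the deposited count table. ALSCs are primed pluripotent stem cells that were established from epiblasts of mouse gastrulae at embryonic day 6.5 and kept in medium with Activin A and LIF. The embryos came from ICR females mated with males carrying the GOF/GFP transgene, a GFP reporter of *Oct4*. RNA-seq of 3 ALSC libraries (replicates 1, 2, and 3), made from poly(A) RNA, was analysed. No other cell type was analysed here, and the labels do not say whether the libraries came from separate lines or cultures, so every p-value below measures the spread between these libraries only.

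Methylation of cytosine in CpG sites is removed either passively, when it is not copied after replication, or actively. In the active route, TET enzymes oxidise 5-methylcytosine stepwise, TDG excises the most oxidised bases, and base excision repair restores the unmodified cytosine. Proteins with a methyl-CpG-binding domain read the mark, and MBD2 and MBD3 are alternative subunits of the NuRD co-repressor, of which MBD3 binds methylated CpG weakly. Pluripotent cells are known to express TET1 together with *de novo* methyltransferases.

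The total count on named genes lay between 18037342 and 18724038 per library. Levels are given as FPKM, the count scaled by the gene length in the deposited table and by the total on named genes. All 5 markers of pluripotent epiblast were at 1 FPKM or more in every library, with *Pou5f1* at 648 ± 25.3 FPKM (SD, n = 3), while 0 of 6 naive markers, 0 of 6 markers of extraembryonic endoderm, and 0 of 4 trophoblast markers were. The naive markers *Esrrb* (0.576, 0.945, and 0.843 FPKM in replicates 1, 2, and 3) and *Tfcp2l1* (0.533, 0.866, and 0.752) were detected below that limit, and the other naive markers were lower. With the length of the longest coding transcript in place of the gene length, the mean of *Esrrb* was 1.11 FPKM. Of 7 fibroblast markers, *Thy1* and *Col1a1* were above 1 FPKM, and *Dcn* and *Lum* had no count in any library. Replicate 1 stood apart from the others. The common biological coefficient of variation was 0.153 over the 3 libraries and 0.0531 without replicate 1. The tests of the 9 genes between libraries are therefore given with and without replicate 1.

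*Mbd3* was by far the most abundant of the 9 transcripts per unit of length, and *Tet2* the least abundant. The mean level of *Mbd3* was 83.8 ± 4.45 FPKM (SD, n = 3), which was above 93.7% of the 11125 genes that reached 1 FPKM in all libraries. The order of mean FPKM was *Mbd3*, *Gadd45a*, *Tdg*, *Tet1*, *Mbd4*, *Mbd1*, *Mbd2*, *Tet3*, and *Tet2*. Between neighbours in this order, the ranges of the libraries were apart only for *Mbd3* over *Gadd45a*, for *Mbd2* over *Tet3*, and for *Tet3* over *Tet2*. The other 5 neighbouring pairs overlapped, although *Tdg* was above *Tet1*, *Tet1* above *Mbd4*, and *Mbd4* above *Mbd1* within each of the 3 libraries. *Gadd45a* was above *Tdg* in 1 of 3 libraries and *Mbd1* above *Mbd2* in 2 of 3. Of the 9 genes, 8 (all but *Tet2*) were at 1 FPKM or more in every library, against 20.1% of all named genes.

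**Figure D1:**
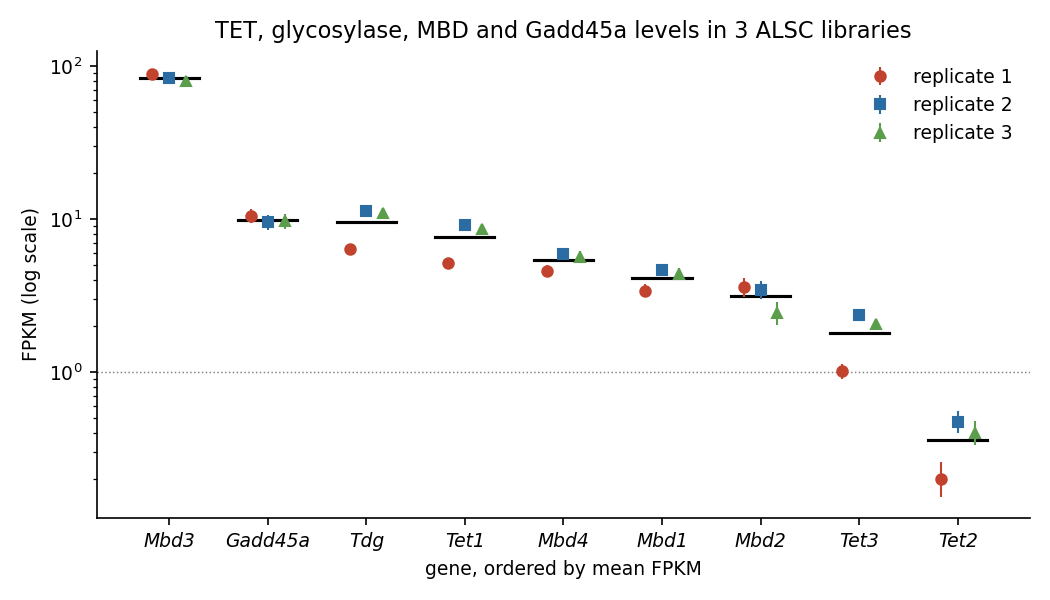
FPKM on a log scale of the 9 genes in each of the 3 ALSC libraries, ordered by mean. Symbols show the libraries, error bars the exact 95% Poisson interval of the count (counting error only), black lines the mean, and the dotted line 1 FPKM. *Mbd3*, at 79.4 to 88.3 FPKM, lies apart from the rest, and *Tet1*, *Tet2*, *Tet3*, and *Tdg* lie lower in replicate 1 than in replicates 2 and 3.

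Among the dioxygenases, *Tet1* made up most of the signal. Its level was 5.14, 9.19, and 8.59 FPKM in replicates 1, 2, and 3 (7.64 ± 2.18, SD, n = 3), from 1438, 2659, and 2394 counts. *Tet3* was at 1.01, 2.34, and 2.04 FPKM, from 305, 732, and 615 counts. *Tet2*, the member of the family without a CXXC domain of its own, was at 0.200, 0.472, and 0.401 FPKM, from 61, 149, and 122 counts. All 3 genes were lowest in replicate 1 and close together in replicates 2 and 3. For *Tet2*, where counts were fewest, the exact 95% Poisson interval was 0.153 to 0.257 FPKM in replicate 1 and did not overlap the intervals of the other libraries, 0.399 to 0.554 and 0.333 to 0.479. Such intervals account for counting error and nothing else, and leave out variation between cultures or libraries. Reads were not tagged by molecule and may repeat the same one, so the intervals may be too narrow even for counting error.

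The proportions within the family moved much less than the levels. *Tet1* took 81.0%, 76.6%, and 77.8% of the summed FPKM of the 3 *Tet* genes in replicates 1, 2, and 3, or 78.5 ± 2.26% (SD, n = 3). *Tet3* took 17.98 ± 1.87% and *Tet2* 3.57 ± 0.396%. The ratio of *Tet3* to *Tet2* FPKM was 5.05, 4.96, and 5.09, so that it was nearly constant, while the summed FPKM of the family was 6.353 in replicate 1 against 12.001 and 11.03 in the others. The 3 genes have similar lengths in the deposited table, from 15457 to 16870 bases. With the length of the longest coding transcript in place of the gene length, the *Tet1* share was 71.2%.

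By the annotation in the deposited table (GRCm38), *Tet1* lies on the minus strand of chromosome 10 from 62804570 to 62908996, *Tet2* on the minus strand of chromosome 3 from 133463679 to 133545139, and *Tet3* on the minus strand of chromosome 6 from 83362373 to 83459084. Transcripts of the 3 genes share almost no sequence with those of other genes. When each longest coding transcript (GENCODE M21) was cut into 50-base words, 99.986% of them for *Tet1* and 100% for *Tet2* and *Tet3* occurred in no transcript of another gene. Genes that overlap the *Tet* genes in the table, such as *Gm48353* in *Tet1* and *Gm42567* opposite to *Tet2*, had at most 4 counts in any library.

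The windows of 250 bases before the RefSeq start were read for 7 of the 9 genes (assembly GRCm38.p6). The windows of *Tet2* and *Tet3* are shown because these genes, which moved together between libraries, differ widely in their density of CG, the dinucleotide that the methylation pathway acts on. CG is in capitals, and both lines run from 5′ to 3′ on the minus strand, *Tet2* from chr3:133544391-133544640 and *Tet3* from chr6:83441679-83441928. Both windows lie inside the gene spans given above, and counts per gene do not show which start was used.
Tet2: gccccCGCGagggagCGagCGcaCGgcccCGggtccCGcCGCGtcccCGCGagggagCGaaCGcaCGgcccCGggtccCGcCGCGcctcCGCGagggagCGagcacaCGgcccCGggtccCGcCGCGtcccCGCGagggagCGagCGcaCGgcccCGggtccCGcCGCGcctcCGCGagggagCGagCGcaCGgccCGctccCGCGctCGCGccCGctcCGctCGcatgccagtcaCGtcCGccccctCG
Tet3: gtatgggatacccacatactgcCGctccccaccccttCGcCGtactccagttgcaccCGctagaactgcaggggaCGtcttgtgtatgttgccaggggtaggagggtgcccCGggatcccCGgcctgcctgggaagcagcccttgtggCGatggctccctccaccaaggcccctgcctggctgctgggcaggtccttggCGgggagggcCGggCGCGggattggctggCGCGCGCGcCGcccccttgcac
The *Tet2* window held 51 CG and the *Tet3* window 17. Of 32851 promoter windows of the same length, 0.067% held 51 CG or more and 23.5% held 17 or more, and the median was 6. Over the 7 genes the number of CG ranged from 11 (*Gadd45a*) to 51 (*Tet2*). The letters GGGCGG, on either strand, occurred in the windows of 6 of the 7 genes, all but *Tdg*, and in 32.7% of all windows. A match of letters describes the window and is not evidence of a bound factor.

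The protein-coding genes with levels most like *Tet1* over the 3 libraries, by Euclidean distance of log2(FPKM + 1), were *Tnks* (distance 0.0196), *Cep192* (0.0373), and *Utrn* (0.0601). *Tnks* was at 5.12, 9.20, and 8.71 FPKM in replicates 1, 2, and 3. Like *Tet1*, all 3 are long, with 14888, 12484, and 17108 bases. The genes nearest to *Tet2* were *Slc25a32*, *Zkscan2*, and *Hivep2*, and those nearest to *Mbd3* were *Eif2b5*, *Ddx18*, and *Lamp1*, the last at distances of 0.0344 to 0.0619. With only 3 libraries of a single condition, such likeness shows a similar level and a similar position of replicate 1.

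*Tdg*, the glycosylase that removes formylcytosine and carboxylcytosine, lies on the plus strand of chromosome 10 from 82629828 to 82650799. Its row held 617, 1131, and 1068 counts in replicates 1, 2, and 3, or 6.35, 11.2, and 11.0 FPKM (9.54 ± 2.76, SD, n = 3). Replicate 1 was at 59.8% of the mean of the others, which were nearly equal. This row is uncertain, however, because the mouse genome holds near-identical processed copies of *Tdg*. Only 33.7% of the 50-base words of its transcript occurred in no transcript of another gene.

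The copy *Gm9855*, a processed pseudogene of 1194 bases on the minus strand of chromosome 10 (42054113 to 42055306), had more counts than *Tdg* itself. It held 1387, 1899, and 1883 counts, which was 2.25, 1.68, and 1.76 times the count of *Tdg* in the same library. Per length it was at 78.9 ± 12.7 FPKM (SD, n = 3), 8.54 ± 1.38 times the level of *Tdg*. The copies *Tdg-ps* on chromosome 15 and *Gm5597* on chromosome 7 held at most 7 and 16 counts. All 1194 bases of *Gm9855* aligned to the *Tdg* transcript without a gap, 1191 of them in its coding part, and 1185 (99.2%) were identical. *Tdg-ps* was identical at 98.7% of 2968 bases and *Gm5597* at 99.3% of 1193 bases, so similarity to *Tdg* was alike in copies with many counts and with few.

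The first 150 bases of *Gm9855* and bases 73 to 222 of the *Tdg* coding sequence (GENCODE M21 transcripts) are shown because they carry the difficulty of assigning reads. Capitals mark the single base at which they differ.
Tdg: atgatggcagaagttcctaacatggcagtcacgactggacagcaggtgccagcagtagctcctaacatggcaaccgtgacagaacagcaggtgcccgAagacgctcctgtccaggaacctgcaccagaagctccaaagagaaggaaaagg
Gm9855: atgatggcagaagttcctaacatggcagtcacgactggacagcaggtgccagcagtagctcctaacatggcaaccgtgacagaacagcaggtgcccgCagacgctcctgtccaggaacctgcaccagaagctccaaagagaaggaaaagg
A read that does not cover that base matches both genes equally well here. How the authors' counting treated such reads is not given in the sources used here, and whether the reads on *Gm9855* came from *Tdg* was not tested. Summed over *Tdg* and its 3 copies, the counts were 2021, 3049, and 2969, of which the *Tdg* row held 30.5%, 37.1%, and 36.0%. Over the *Tdg* length, the sum amounted to 27.2 ± 5.59 FPKM (SD, n = 3), and would place *Tdg* above *Gadd45a* and *Tet1* in all libraries. The direction for replicate 1 was the same for the sum, with a log2 ratio to the mean of the others of -0.48, against -0.74 for the *Tdg* row alone.

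**Figure D2:**
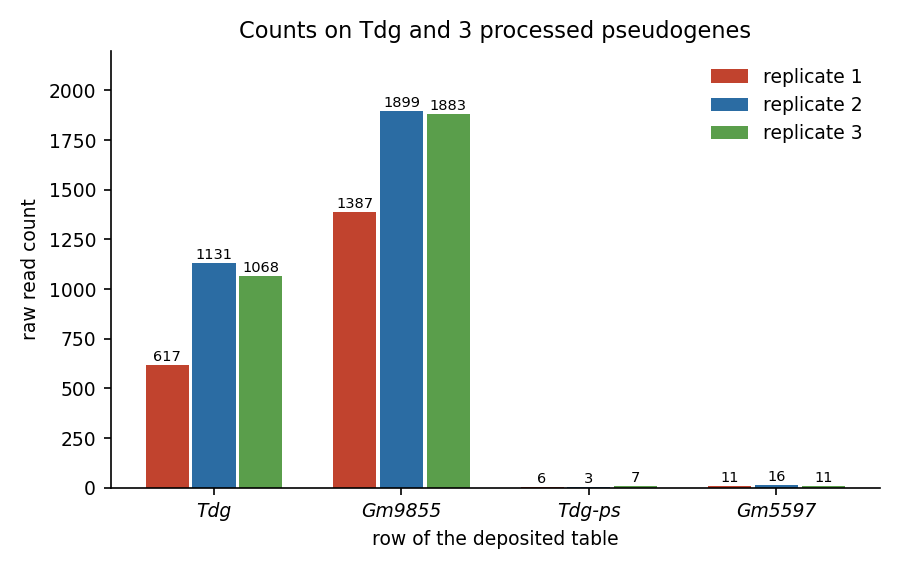
Raw read counts on the rows of *Tdg* and of its 3 processed pseudogenes, with a bar per library and the count above each bar. The bars of *Gm9855* (1387 to 1899) exceed those of *Tdg* (617 to 1131) in each library, and the bars of *Tdg-ps* and *Gm5597* are at 16 counts or fewer.

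*Mbd4*, which pairs a methyl-CpG-binding domain with a glycosylase that removes thymine from T:G mismatches, lies on the minus strand of chromosome 6 from 115840697 to 115853371. It was at 4.58, 5.92, and 5.67 FPKM in replicates 1, 2, and 3 (5.39 ± 0.714, SD, n = 3), from 437, 585, and 540 counts. The spread was smaller than that of *Tdg*, with replicate 1 again lowest, at 82.9% of the others. Unlike *Tdg*, 92.5% of its 50-base words were unique to the gene, and its closest sharer, the opposite-strand *Gm44206*, had at most 2 counts.

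Of the readers, *Mbd3* dominated. It was at 88.3, 83.7, and 79.4 FPKM in replicates 1, 2, and 3, from 3175, 3114, and 2847 counts, and lies on the minus strand of chromosome 10 from 80392539 to 80399550. *Mbd2*, on chromosome 18, was at 3.58, 3.46, and 2.41 FPKM, from 208, 208, and 140 counts. *Mbd1*, whose product binds methylated CpG and also carries CXXC domains, lies on chromosome 18 as well and was at 3.40, 4.63, and 4.37 FPKM, from 417, 588, and 534 counts. *Mbd1* was lowest in replicate 1, whereas *Mbd2* and *Mbd3* were highest in replicate 1 and lowest in replicate 3. Relative to its mean, *Mbd3* varied least of the 3. *Mbd3* took 86.8 ± 1.43% (SD, n = 3) of the summed FPKM of *Mbd1*, *Mbd2*, *Mbd3*, and *Mbd4*.

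As *Mbd2* and *Mbd3* encode alternative subunits of NuRD, their ratio describes the makeup of the transcripts of the complex. The *Mbd3* to *Mbd2* ratio of FPKM was 24.7, 24.2, and 32.9 in replicates 1, 2, and 3, or 27.3 ± 4.88 (SD, n = 3). With transcript lengths the mean was 19.8, so *Mbd3* exceeded *Mbd2* by a wide margin on either scale. All 50-base words of the transcripts of *Mbd1*, *Mbd2*, and *Mbd3* were unique to these genes. The levels describe RNA and not protein or assembled complex.

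*Gadd45a*, a stress-induced adaptor that has been linked to TDG-dependent demethylation, was the only 1 of the 9 that the test between libraries below did not call. It was at 10.4, 9.51, and 9.65 FPKM in replicates 1, 2, and 3 (9.86 ± 0.501, SD, n = 3), from 333, 314, and 307 counts. The 3 exact Poisson intervals overlapped, with 9.35 to 11.6 FPKM in replicate 1 and 8.48 to 10.6 in replicate 2. The gene lies on the minus strand of chromosome 6 from 67035096 to 67037457, and 16.1% of its 50-base words were shared with the antisense transcript *E230016M11Rik*, which had 5 to 8 counts.

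Whether the libraries differed by more than counting error was tested for every gene by a chi-square test of homogeneity against TMM library sizes, with Benjamini-Hochberg adjustment over 16944 genes and a threshold of 0.05. This test takes no account of ordinary variation between cultures. It called 8003 genes, or 47.2% of those tested, and 8 of the 9 genes described here, all but *Gadd45a* (adjusted p = 0.211). At 500 counts or more in total, a depth that all 9 but *Tet2* reached, it called 67.6% of genes, and 7 of these 8. The smallest adjusted p-values of this chi-square test were those of *Tet1* (7.12e-62), *Tet3* (1.16e-30), and *Tdg* (1.00e-27), followed by *Mbd3* (9.56e-08) and *Tet2* (1.60e-06).

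Of the 9 genes, 6 were called and lower in replicate 1 than the mean of the others, and 2 were called and higher, against 23.8% and 23.4% of all genes tested. The lower ones were the 3 *Tet* genes, *Tdg*, *Mbd4*, and *Mbd1*, and the higher ones were *Mbd2* and *Mbd3*, of which *Mbd3* changed direction with the length trend subtracted. Whether called or not, 6 of the 9 were below both other libraries in replicate 1 and 3 were above both, against 40.9% and 41.8% of all genes tested. Without replicate 1, only *Mbd2* was called (adjusted p = 0.0259 by the chi-square test), against 8.11% of all genes, and its log2 ratio of replicate 3 to replicate 2 was -0.50. Thus the calls for the *Tet* genes, *Tdg*, *Mbd1*, *Mbd3*, and *Mbd4* rested on replicate 1. For example, the adjusted p without it was 0.270 for *Tet1*, 0.164 for *Tet3*, and 0.969 for *Tdg*.

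Replicate 1 differed from the other libraries along gene length. Over 10577 genes that averaged 100 counts or more, divided into 20 groups by length, the median log2 ratio of replicate 1 to the mean of replicates 2 and 3 went from 0.39 in the shortest group (median length 685 bases) to -0.53 in the longest (median length 15648.5 bases). In the longest group, 93.0% of genes were lower in replicate 1. The median ratio of replicate 3 to replicate 2 moved only between -0.05 and 0.09 over the same groups. The *Tet* genes belong to the longest group, while *Mbd3* and *Gadd45a* are short, with 1987 and 1764 bases.

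On this scale, *Tet* values in replicate 1 relative to the other libraries were log2 -0.72 for *Tet1*, -1.06 for *Tet2*, and -1.05 for *Tet3*. Among the 560 genes of 12 to 20 kb the quartiles were -0.74 and -0.24, so that *Tet1* lay within them and *Tet2* and *Tet3* below. The ratio was -0.74 for *Tdg*, -0.33 for *Mbd1*, and -0.27 for *Mbd4*, and it was positive for *Mbd2* (0.36), *Gadd45a* (0.19), and *Mbd3* (0.18). The order of the 9 genes from low to high ratio thus ran broadly from the longest to the shortest, apart from *Tdg* at 5374 bases and *Mbd2* at 3214.

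**Figure D3:**
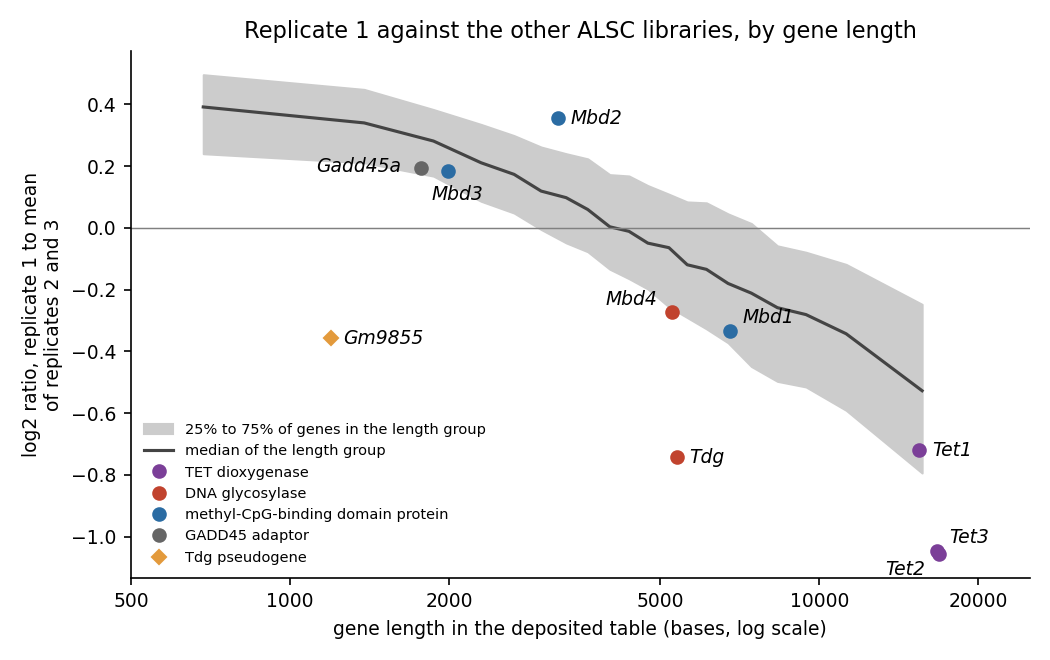
Log2 ratio of replicate 1 to the mean of replicates 2 and 3 (TMM-scaled) against gene length on a log scale. The line and the grey band give the median and quartiles of 20 length groups of 10577 genes, circles the 9 genes, and the diamond the pseudogene *Gm9855*. *Tet1* lies inside the band of the longest genes, and *Tet2* and *Tet3* lie below it. *Tdg* and *Gm9855*, each drawn at its own length in the deposited table, lie far below the genes of that length.

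With the median of the length group subtracted, the ratio moved towards 0 for each *Tet* gene, to -0.20 for *Tet1*, -0.53 for *Tet2*, and -0.52 for *Tet3*. For *Tdg* it moved little, from -0.74 to -0.65. For the short *Gm9855*, taken at its own length of 1194 bases, it moved away from 0, from -0.36 to -0.71. That length would not apply to reads that came from *Tdg*, and whether any did was not tested. The ratio of *Mbd3* turned from 0.18 to -0.08, and that of *Gadd45a*, which was not called, from 0.19 to -0.10, so no direction can be given for either. *Mbd1* and *Mbd4* were at -0.15 and -0.20, and *Mbd2* stayed positive at 0.25. Subtraction of a GC trend as well gave -0.25, -0.57, and -0.49 for *Tet1*, *Tet2*, and *Tet3*, and -0.67 for *Tdg*.

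The chi-square test was repeated with each library's length trend in the expected counts. It then called 38.5% of all genes and 5 of the 9, namely *Tet1* (adjusted p = 0.000113), *Tet3* (1.86e-07), *Tdg* (2.27e-21), *Mbd2* (0.00420), and *Mbd3* (0.0128). *Tet2* (0.0567), *Mbd4* (0.106), *Mbd1* (0.229), and *Gadd45a* (0.695) did not pass. With a GC trend added, 6 of the 9 passed, against 37.9% of all genes, where *Tet2* (0.0322) and *Mbd4* (0.0256) entered and *Mbd3* (0.544) left. Lower *Tet* levels in the cells of replicate 1 and the length trend of that library cannot be told apart here.

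**Figure D4:**
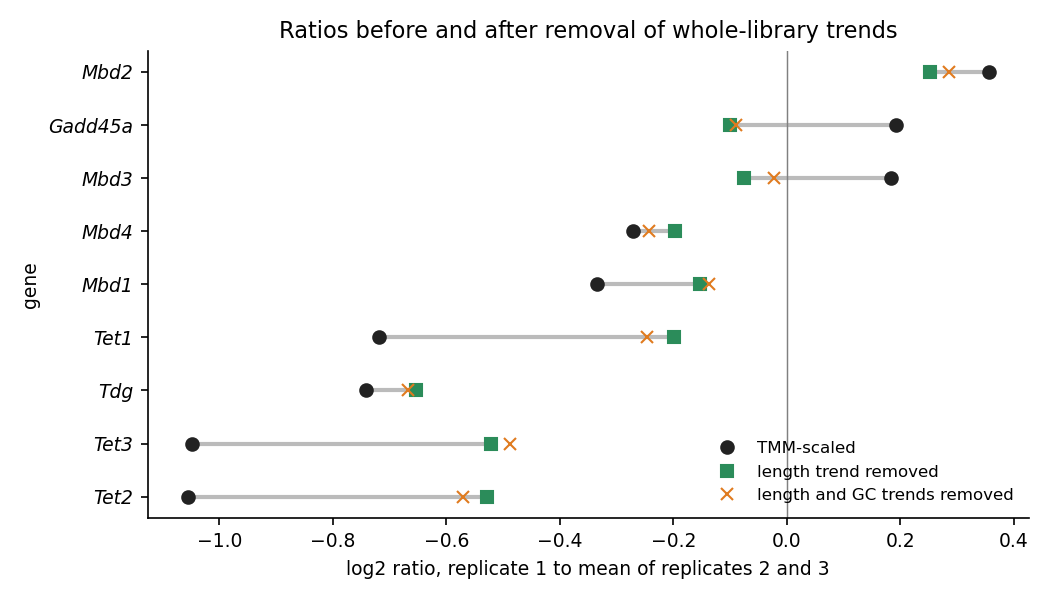
Log2 ratio of replicate 1 to the mean of replicates 2 and 3 for the 9 genes, as TMM-scaled counts (circles), with the length trend subtracted (squares), and with length and GC trends subtracted (crosses). *Tet1*, *Tet2*, and *Tet3* move by 0.5 or so towards 0, *Tdg* stays near -0.65, and *Gadd45a* and *Mbd3* change sign.

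Next, the partners of these enzymes and readers were examined. Of the genes that write the mark or maintain it, *Dnmt3b*, *Uhrf1*, and *Dnmt1* were at several times the FPKM of *Tet1*, and the others were not. *Dnmt3b*, the *de novo* methyltransferase of the epiblast, was at 281 ± 43.7 FPKM (SD, n = 3), and *Uhrf1*, which recruits the maintenance enzyme to replicating DNA, was at 97.1 ± 14.4. The maintenance enzyme *Dnmt1* was at 49.6 ± 10.3 FPKM and *Dnmt3a* at 11.8 ± 1.98, whereas *Dnmt3l* and *Dnmt3c* stayed below 1 FPKM in every library. The *Dnmt3b* to *Tet1* ratio of FPKM was 44.9, 33.8, and 35.2 in replicates 1, 2, and 3 (37.9 ± 6.05, SD, n = 3), the highest value being that of replicate 1. With the length trend subtracted, replicate 1 relative to the other libraries was at log2 -0.28 for *Dnmt3b* (5106 bases) and -0.20 for *Tet1*. With length and GC trends subtracted, both genes were at -0.25, so no order of the libraries can be given for this ratio. Of the 7 genes of this list, 5 were called and all 5 were lower in replicate 1, against 47.2% of all genes called (67.6% at 500 counts or more) and 23.8% called and lower. Their median log2 ratio was -0.34, against -0.00023 over all genes tested, and -0.28 with the length trend subtracted, and 4 of the 7 were called with that trend in the expected counts, against 38.5% of all genes.

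A further list of 12 genes held other methyl-CpG readers and genes grouped with them by the MBD domain, so not every gene in it encodes a reader. Of the 12, 7 reached 1 FPKM in each library, against 20.1% of all named genes. The highest were *Baz2a*, a subunit of the nucleolar remodelling complex NoRC, at 22.6 ± 7.07 FPKM (SD, n = 3) and the histone methyltransferase gene *Setdb1* at 11.1 ± 1.79. Of the 12, 10 had enough counts to be tested. Of these, 8 were called, all lower in replicate 1, against 47.2% of all genes called and 23.8% called and lower. At 500 counts or more in total, which most of these 10 reached, 67.6% of all genes were called. The lowest log2 ratio was that of *Baz2a* (-0.81). With the length trend in the expected counts 5 of the 10 tested were called, against 38.5% of all genes. *Mbd3l1* and *Mbd3l2*, MBD3-like genes known from germ cells, had no count in any library, which allows levels of up to 0.189 and 0.0757 FPKM at 3 counts.

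The transcripts of NuRD, the complex of MBD2 and MBD3, were all present. All 12 genes were at 1 FPKM or more in every library, from *Gatad2b* at 5.10 ± 1.06 FPKM to *Rbbp7*, a histone-binding subunit, at 105 ± 6.57 (SD, n = 3). The remodeller *Chd4* was at 61.1, 90.2, and 84.8 FPKM in replicates 1, 2, and 3, so the ratio of *Chd4* to *Mbd3* was 0.691 in replicate 1 and 1.08 and 1.07 in the others. *Chd4* has 8019 bases and *Mbd3* 1987. The histone deacetylase genes *Hdac1* and *Hdac2* were at 51.6 ± 0.611 and 71.5 ± 6.16 FPKM, and the paralogs *Mta1*, *Mta2*, and *Mta3* at 59.9 ± 4.87, 53.9 ± 3.72, and 17.7 ± 0.804. Of the 12 genes, 11 were called, 6 lower and 5 higher in replicate 1, against 67.6% of all genes with 500 counts or more. With the length trend in the expected counts 9 were called, against 38.5% of all genes tested, a share that was not computed at that depth. The values of *Hdac1* and *Cdk2ap1* are uncertain, as only 41.3% and 11.1% of their 50-base words were unique.

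Downstream of TDG and MBD4, all 13 genes of base excision repair reached 1 FPKM in each library. *Parp1*, a sensor of strand breaks, was at 101 ± 13.9 FPKM (SD, n = 3) and the ligase gene *Lig1* at 70.4 ± 0.928. Of the 13, 8 were called, against 47.2% of all genes tested (67.6% at 500 counts or more, which most of the 13 reached). Of the 8 called, 4 were lower in replicate 1, with *Lig3* the lowest (log2 ratio -0.70). The other 4 were higher, with *Polb*, the repair polymerase, the highest (0.37). With the length trend in the expected counts 8 of the 13 were called, against 38.5% of all genes. In the list of the other *Gadd45* genes and cytidine deaminases, none of 6 genes was called by the chi-square test, and the lowest unadjusted p was 0.0868 (*Apobec2*). With the length trend in the expected counts 1 of the 6 was called, against 38.5% of all genes. *Gadd45b* was at 9.29 ± 0.610 FPKM, a level close to that of *Gadd45a*, and *Gadd45g* at 0.388 ± 0.175. *Apobec1*, whose product edits RNA, was at 18.4 ± 0.319 FPKM.

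**Figure D5:**
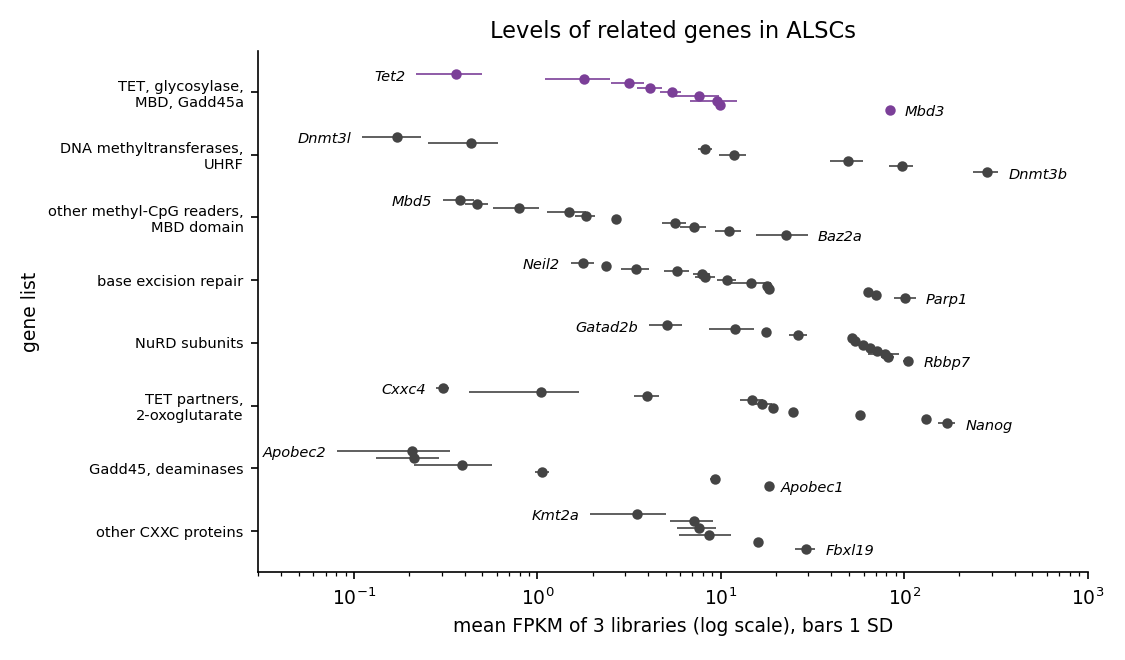
Mean FPKM on a log scale of the 9 genes and of 7 lists of related genes, with a point per gene and bars of 1 SD over 3 libraries. The highest and lowest gene of each list is named. *Mbd3* lies within the range of the NuRD subunits, the *Tet* genes lie below *Dnmt1*, *Uhrf1*, and *Dnmt3b*, and genes without a count are not drawn.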

How the data were processed

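Poly(A) RNA of 3 ALSC libraries was sequenced as paired-end reads after library preparation with an Illumina TruSeq kit, and the authors mapped the reads to GRCm38. The submitters' processing notes name HISAT2 2.0.5. The counting program, the use of strand, and the treatment of reads with several matching positions are not given in the sources used here. The authors deposited raw counts per gene with no normalization, beside each gene's Ensembl identifier, position, and length. The table holds 3 more columns of counts that match no sample of the series and were not analysed here. Rows without a gene name (317 of 55738) held 0.165% to 0.182% of the counts and were left out.

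FPKM was computed from the counts, the gene length of the table, and the total on named genes, which was 18088505, 18724038, and 18037342. A count of 3 was taken as the limit that a count of 0 allows. Composition was corrected with TMM factors of edgeR 4.0.16 (0.968, 1.02, and 1.01), with DESeq2 1.42.0 size factors as an alternative, in R 4.3.3. The chi-square test used genes with at least 10 counts in total. It was tried on simulated counts that held only counting error and set changes, with no other variation between libraries. The trial therefore does not show how the test behaves under such variation. Only 1 condition was analysed, so no test between groups was made. Length and GC trends were read as medians within 20 equal groups of the genes that averaged 100 counts or more. GC content and the 50-base words came from the longest coding GENCODE M21 transcript of each gene, and 99.96% of the genes behind the trends had a GC content. Promoter windows were taken from RefSeq. Python 3.11.15 with NumPy 2.4.6, SciPy 1.17.1, pandas 2.3.3, Biopython 1.88, and matplotlib 3.10.9 were used.

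The 9 genes and the lists of related genes were chosen with earlier results of these data known. Named were all 9 genes, of each list the 2 genes with the highest mean FPKM, the called genes furthest below and above in replicate 1, and genes with at most 3 counts in every library. Any gene of the methyltransferase, NuRD, and *Gadd45* lists could be named as well, and so could genes that share sequence with the 9 or overlap them, and the 3 genes nearest in level to *Tet1*, *Tet2*, and *Mbd3*. *Cxxc4* and *Cxxc5* were named outside this rule, as CXXC genes that stand in another list. Alternatives covered library size, filters, thresholds, TPM, transcript length, the trends, and leaving out each replicate.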

Additional observations from a re-analysis of the deposited data

How the results depend on the processing

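Leaving out each replicate in turn gave 1 to 8 of the 9 genes called and 1302 to 7490 genes called in all, and in both cases the lowest value was that without replicate 1. With the length trend in the expected counts, in 20 or in 100 groups, 5 of the 9 were called, and 6 with length and GC trends. These alternatives, the subtraction of the length trend in 100 groups, and the sum of *Tdg* with its copies were chosen after the data had been seen. At a threshold of 5 FPKM, 4 of the 9 genes passed in every library. With transcript length, the *Tet1* share was 71.2% and the *Mbd3* to *Mbd2* ratio 19.8. Without each replicate in turn, the share was 77.2% to 79.4% and the ratio 24.5 to 28.8. The log2 ratio of replicate 1 for *Mbd3* turned to -0.0752 with the length trend subtracted, -0.0232 with length and GC trends, -0.0828 in 10 length groups, and -0.0700 in 100 groups. The cause was not tested. DESeq2 size factors, plain totals, no filter on low counts, and a filter at 100 counts each left 8 of the 9 called, and a threshold of 0.005 left 7. No paired analysis was possible because only 1 group was analysed. Depth limited *Tet2* most, and no statement on other cell types, protein, or enzyme activity can be drawn from 3 libraries of 1 condition.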

Other observations

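TET1 and TET3 recognise unmethylated CpG through a CXXC domain, which other chromatin proteins share. All 6 genes of a list of other CXXC proteins were at 1 FPKM or more in every library, led by *Fbxl19*, which encodes an F-box protein, at 29.1 ± 3.67 FPKM (SD, n = 3) and *Cxxc1*, a subunit of the SET1 histone methyltransferase complex, at 16.0 ± 0.314. The list does not hold every CXXC gene. In the list of TET partners below, *Cxxc4* was at 0.305 ± 0.0241 FPKM and *Cxxc5* at 24.9 ± 0.479. Of the 6, 5 were called by the chi-square test, all lower in replicate 1, and *Cxxc1* was not. Of all genes tested, 47.2% were called and 23.8% were called and lower. At 500 counts or more in total, which all 6 reached, 67.6% were called. With the length trend in the expected counts 5 of the 6 were called, against 38.5% of all genes. *Kmt2a*, a histone H3K4 methyltransferase gene of 16670 bases, had the lowest log2 ratio (-1.29), below that of each *Tet* gene, and it was at -0.76 with the length trend subtracted.

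Among 10 genes of TET partners and of 2-oxoglutarate metabolism, which supplies the cosubstrate of TET enzymes, *Nanog*, a pluripotency factor whose product binds TET1, was at 171 ± 17.96 FPKM (SD, n = 3) and *Idh1*, a dehydrogenase that makes 2-oxoglutarate, at 131 ± 3.13. Of the 10, 7 were called, against 47.2% of all genes tested (67.6% at 500 counts or more, which most of the 10 reached). With the length trend in the expected counts 6 of the 10 were called, against 38.5% of all genes. Of the 7 called, 3 were lower in replicate 1 and 4 were higher, where 23.8% and 23.4% of all genes were. *Ogt* had the lowest log2 ratio of those called (-0.27). *Dppa3*, a maternal factor that protects against oxidation by TET3, had the highest (1.25), from 27, 7, and 17 counts in replicates 1, 2, and 3.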
